A study of Mus musculus with 6 samples.

Results

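Chromatin immunoprecipitation and sequencing (ChIP-seq) of Bcl6 in cortical progenitors gave 455 wide peaks whose centre lay away from every listed transcription start site (TSS), of 3878 peaks in all. They were chosen by 2 values of the authors' files. A peak belonged if it was over 2000 bp wide and if its smallest listed distance from peak centre to TSS was over 1000 bp. They made up 11.7% of the peaks and 24.1% of the sequence that peaks covered (1.58 of 6.56 Mb), and held 27.0% of the ChIP tags in peaks (80492 of 297616). The other peaks were 430 wide peaks within 1000 bp of a TSS, 1249 narrow peaks away from TSSs, 1741 narrow peaks within 1000 bp of a TSS and 3 peaks with no listed gene. Width and distance set the membership, so both are given below as a description.

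The cells were A2 lox.Cre Bcl6 mouse embryonic stem (ES) cells, a line kept on irradiated mouse embryonic fibroblasts, in which a transgene adds Bcl6 under tetracycline control. They were differentiated toward cortical progenitors with cyclopamine (400 ng/ml), an inhibitor of Sonic hedgehog signalling, and all 6 libraries came from differentiation day 12 after 24 h of Bcl6 induction with 1 µg/ml doxycycline. The ChIP group had 3 libraries made with the Bcl6 antibody sc-858, and the input group had 3 libraries of unprecipitated DNA from the same kind of culture. The authors pooled each group before calling peaks, so every peak value below is 1 value of the authors' table with no replicate error, and no difference between peaks was tested. The induced protein and the cells' own Bcl6 are not separated, because uninduced cells were not analysed here, and no library measured RNA, so the cell type was not checked against expression of its markers. The pooled ChIP kept 11718276 of 56836596 tags after repeats at a position were removed (20.6%), the pooled input kept 5048582 of 12808138 (39.4%), and 0.687% of the kept ChIP tags lay in the wide peaks away from TSSs.

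Bcl6 is a zinc finger repressor that binds DNA through its C-terminal fingers and recruits corepressors through its BTB domain. It is best known from germinal centre B cells, and in the developing cortex it promotes the change from progenitor to neuron by lowering the response to signals that keep progenitors dividing. Transcription factors are often found at promoters and at distal enhancers, where a peak is usually about as wide as the sheared DNA around a site, while a broad peak can span several sites.

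The sequences shown first are those of the promoter windows in which a Bcl6 motif or the peak summit was found, because a peak centred away from its listed TSS can still hold the promoter of another gene or of the same gene. Of 32851 RefSeq promoter windows (250 bases before to 50 after a gene's start, assembly GRCm38.p6), 160 lay wholly inside 111 of the 455 peaks. The Bcl6 motif TTCCTAGAA, searched on both strands, was in 2 of these 160 windows (1.25%, 95% exact interval 0.152 to 4.44) and in 0.411% of all windows. The looser form TTCCTNGAA, which contains the first, was in the same number (1.25%) and in 1.59% of all windows. The windows with the motif belonged to Elf2, an ETS family transcription factor gene, and Exosc6, which encodes a subunit of the RNA exosome. In the first pair of sequences the capitals mark the motif, which lies on the other strand. In the second pair, from the neural progenitor and ES cell factor gene Sox2 and the RING finger gene Rnf44, they mark the 21 bases centred on the peak summit.
Elf2, chr3:51277465-51277764, minus strand: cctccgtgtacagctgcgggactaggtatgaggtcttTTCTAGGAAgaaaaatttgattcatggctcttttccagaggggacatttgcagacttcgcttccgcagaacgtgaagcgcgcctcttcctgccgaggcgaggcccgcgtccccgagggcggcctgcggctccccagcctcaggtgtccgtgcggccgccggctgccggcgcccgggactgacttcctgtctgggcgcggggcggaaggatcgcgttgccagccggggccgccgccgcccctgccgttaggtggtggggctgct
Exosc6, chr8:111056089-111056388, plus strand: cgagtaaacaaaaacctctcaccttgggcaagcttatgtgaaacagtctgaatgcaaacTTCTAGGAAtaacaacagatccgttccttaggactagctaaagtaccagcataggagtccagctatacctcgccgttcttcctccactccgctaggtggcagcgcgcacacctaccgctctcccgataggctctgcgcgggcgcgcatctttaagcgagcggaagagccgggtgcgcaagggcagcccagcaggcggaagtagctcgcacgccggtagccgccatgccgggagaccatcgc
Sox2, chr3:34649745-34650044, plus strand: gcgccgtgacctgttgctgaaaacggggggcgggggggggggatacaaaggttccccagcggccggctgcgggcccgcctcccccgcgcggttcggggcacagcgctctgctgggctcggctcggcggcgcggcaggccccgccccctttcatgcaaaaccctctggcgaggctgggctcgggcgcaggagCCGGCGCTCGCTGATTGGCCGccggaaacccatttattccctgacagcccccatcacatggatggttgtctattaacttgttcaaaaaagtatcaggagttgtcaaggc
Rnf44, chr13:54693911-54694210, minus strand: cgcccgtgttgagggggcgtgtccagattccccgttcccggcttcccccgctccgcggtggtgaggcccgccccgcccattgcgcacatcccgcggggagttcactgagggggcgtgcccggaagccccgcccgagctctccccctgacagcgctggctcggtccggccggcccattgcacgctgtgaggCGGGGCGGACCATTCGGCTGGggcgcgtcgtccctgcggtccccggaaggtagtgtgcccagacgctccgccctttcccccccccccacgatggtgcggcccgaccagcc

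The peak over the Elf2 window was 2264 bp wide, with 72 tags and 12.8-fold enrichment, and its nearest listed gene was Ccrn4l at 52.5 kb. The peak over the Exosc6 window was 2028 bp wide, with 96 tags and 24.5-fold enrichment, and its nearest listed gene was Aars at 22.6 kb. In the Exosc6 peak the summit lay 135 bp past the TSS, and in the Elf2 peak 908 bp past it. At Sox2 the peak was 7151 bp wide with 318 tags and 11.1-fold enrichment, and its centre lay 1176 bp past the TSS although its summit was in the promoter window. At Rnf44 the peak was 2289 bp wide with 261 tags and 54.6-fold enrichment, the fourth highest enrichment of the 455, with its summit 50 bp before a RefSeq TSS although the listed TSS was 5811 bp away. The summit lay in 32 of the 160 windows in all, among them those of Gas5, Srsf3, Sall1 and Tet1. A match is a match of letters only, and DNA outside promoter windows was not searched.

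One microRNA cluster lay whole under a wide peak, and 5 of its annotated mature sequences are shown because they share bases 2 to 7. The peak on chr7:3217533-3223510 was 5978 bp wide, with 486 tags and 38.0-fold enrichment. It held 9 hairpins of the miR-290 family, which is known for high expression in ES cells, and 17 annotated mature sequences. For Mir292 only miR-292a-5p was annotated in the source used, so counts of mature sequences may be incomplete. The 17 sequences spanned 2200 bp on both strands, and the summit lay 929 bp past the last of them. The capitals are the seed, bases 2 to 8.
miR-290a-3p: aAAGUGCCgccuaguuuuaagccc
miR-291a-3p: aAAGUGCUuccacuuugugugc
miR-291b-3p: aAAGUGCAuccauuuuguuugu
miR-294-3p: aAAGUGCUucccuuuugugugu
miR-295-3p: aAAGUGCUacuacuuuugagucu

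All 5 seeds begin with AAGUGC, and those of miR-291a-3p, miR-294-3p and miR-295-3p are identical over bases 2 to 8. The peak covered the whole lncRNA gene D7Ertd143e, of 2232 bp. It was centred inside the inflammasome gene Nlrp12, whose TSS, the nearest listed, was 29.2 kb away. The authors' gene list ties this peak to Nlrp12, which it overlaps, and does not name the microRNAs.

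The 455 peaks, much like the 430 wide promoter peaks, had modest enrichment but many tags. Their fold enrichment over the local input background ran from 9.04 to 177 with a median of 17.0. The median was 17.5 in the wide promoter peaks, 23.9 in the 1249 narrow peaks away from TSSs and 21.3 in all peaks. Their tag counts ran from 56 to 1158 with a median of 130, against 44 in the narrow peaks away from TSSs and 110 in the wide promoter peaks. The p-value score (−10 log10 of the p-value of the peak caller) had a median of 110. It was 100 in the wide promoter peaks and 65.2 in the narrow peaks away from TSSs. A score at or above the median of all peaks was found in 364 of the 455 (80.0%), in 73.0% of the wide promoter peaks and in 50.0% of all peaks. Enrichment over 50-fold was found in 4 of the 455 (0.879%), in 3 wide promoter peaks (0.698%), in 82 narrow peaks away from TSSs (6.57%) and in 3.12% of all peaks. Tag count, score and width share the same reads, so these differences are not independent of how the peaks were chosen.

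**Figure D1:**
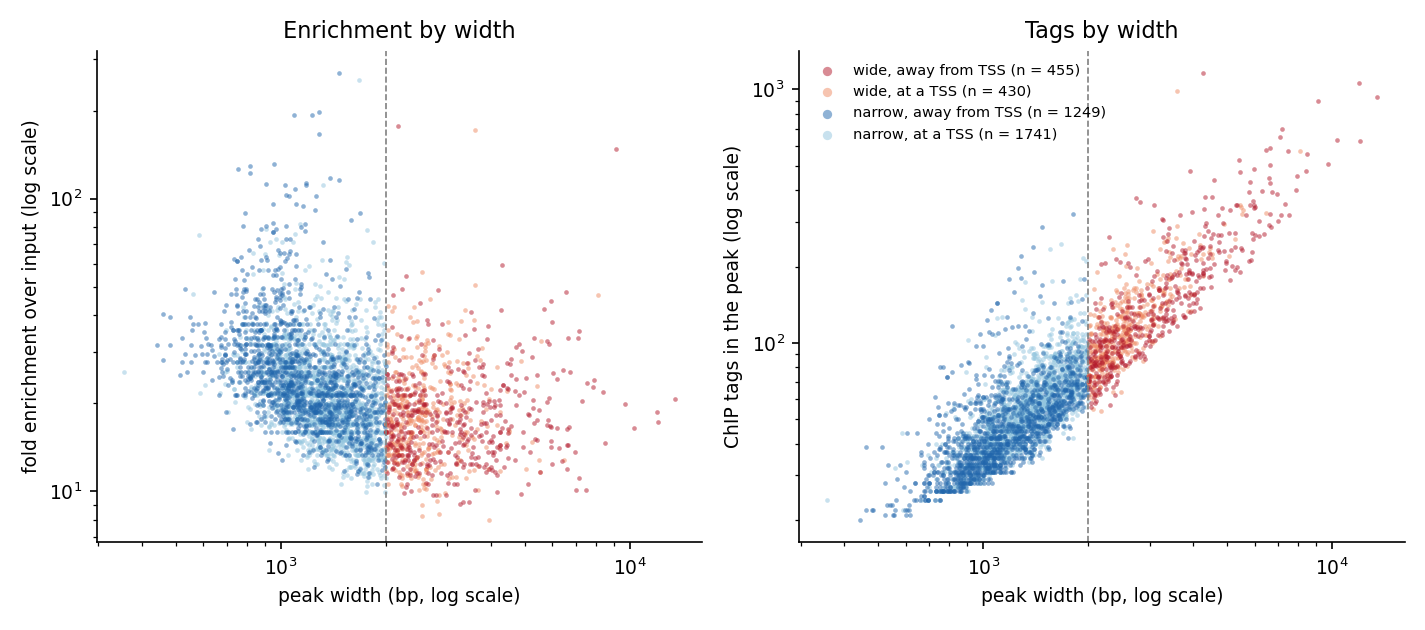
Fold enrichment over input (left) and ChIP tags (right) of each peak against its width, all on log axes, with the 455 wide peaks away from a listed TSS in dark red, the 430 wide peaks at a TSS in orange, narrow peaks in blue and the width threshold of 2000 bp dashed. Among the dark red points tags rise with width (Spearman's rho 0.86) and fold enrichment does not (0.07).

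Width ran from 2006 to 13470 bp, with a median of 2992 bp. The wide promoter peaks had a median width of 2486 bp and reached 8116 bp. Within the 455 peaks, width went with tag count (Spearman's rho 0.86, n = 455), with score (0.54) and with tags per kb (0.40), and hardly with fold enrichment (0.07). In the 1249 narrow peaks away from TSSs, fold enrichment was lower in wider peaks (rho −0.51) and tags per kb were slightly lower (−0.14). The points of each correlation come from 1 pooled library pair, and the measures share their tags. By width class, the 229 peaks of 2 to 3 kb had a median of 40.0 tags per kb, and the 32 peaks over 6 kb had 57.1. Median fold enrichment in the same classes was 16.8 and 19.3.

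At the width threshold the peaks just inside were those nearest to Zcchc3, Plcb4 and Cirbp, at 2006, 2008 and 2011 bp and 16.0-, 16.0- and 14.0-fold. Just outside lay peaks nearest to Med13l, Ywhag and Tgif1, at 1998, 1994 and 1993 bp and 26.9-, 16.0- and 16.6-fold. At the distance threshold the peaks just inside were those of Bahcc1, Ech1 and BC031181, at 1010, 1015 and 1026 bp, and just outside those of Ubtf, Hnrnpl and Celsr3, at 993, 992 and 978 bp. Values just inside and just outside were alike in size, and the thresholds mark no gap in the data.

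These peaks were not all clear of promoters. Of the 455 peaks, 84 (18.5%, 95% exact interval 15.0 to 22.3) were so wide that they spanned their nearest listed TSS, which 56.8% of all peaks did. The summit was within 1 kb of a listed TSS in 36 (7.91%), against 55.9% of all peaks. A TSS of the RefSeq table was covered by 116 (25.5%), against 51.6% of all peaks. The distance to the nearest listed TSS ran from 1010 bp to 407 kb, in the gene of the forkhead factor Foxp1, with a median of 7356 bp. It was 1 to 2 kb in 78 peaks, 2 to 5 kb in 103, 5 to 10 kb in 86, 10 to 50 kb in 139 and over 50 kb in 49. Median fold enrichment was 16.8 to 17.3 in all 5 classes, while in the narrow peaks away from TSSs it was 21.5 at 1 to 2 kb and 28.2 beyond 50 kb.

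Many of the wide peaks lay over the ends of genes. A peak could be placed against its nearest listed gene if the implied TSS lay within 1000 bp of an end of the RefSeq gene. Of the 352 placed in this way, 140 (39.8%, 34.6 to 45.1) were centred past the gene's 3′ end, 112 (31.8%) inside it and 100 (28.4%) upstream. Of the 951 narrow peaks away from TSSs that could be placed, 30.3% (27.4 to 33.3) were past the 3′ end, 32.2% inside and 37.5% upstream. A 3′ end of a protein-coding gene lay under 152 of the 455 peaks (33.4%, 29.1 to 37.9), against 13.7% of the wide promoter peaks, 5.28% of the narrow peaks away from TSSs and 8.92% of all peaks. Wider peaks cover more of anything, so the ends were also counted per Mb of peak. There were 125 per Mb in the wide peaks away from TSSs, 63.6 in the wide promoter peaks and 50.5 in the narrow peaks away from TSSs. A gene without a RefSeq promoter window had its 3′ end counted only if it was listed for a peak over 1000 bp from its TSS. This can favour peaks away from TSSs over promoter peaks, and its size was not tested. The share with a 3′ end under the peak was 21.8% at 2 to 3 kb, 41.1% at 3 to 4 kb, 44.8% at 4 to 6 kb and 59.4% over 6 kb. The nearest listed genes were short, with a median length of 11.0 kb against 23.7 kb for the narrow peaks away from TSSs, and gene length and width were not separated from position.

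**Figure D2:**
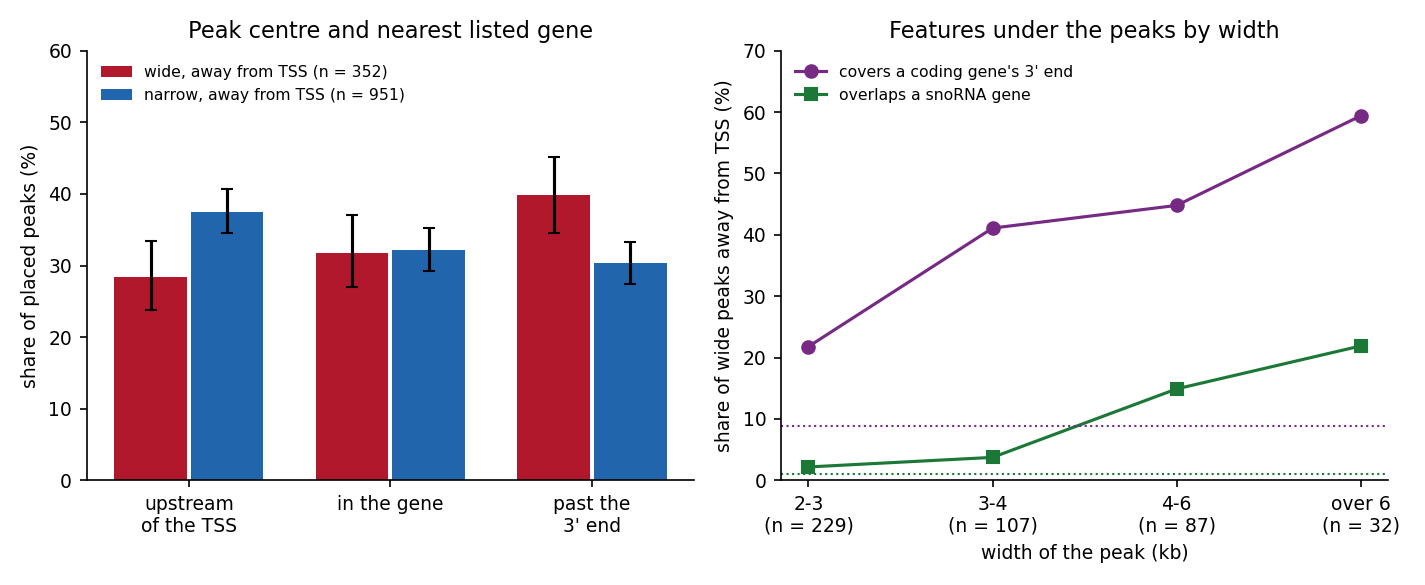
Left, share of placed peaks (with 95% exact intervals) whose centre lay upstream of, in, or past the 3′ end of the nearest listed gene, for wide (red, n = 352) and narrow (blue, n = 951) peaks away from TSSs. Right, share of the 455 wide peaks that cover a coding gene's 3′ end (purple) or overlap a snoRNA gene (green) by width, with the share of all peaks dotted (8.92% and 1.03%): both shares are highest, at 59.4% and 21.9%, in the 32 peaks over 6 kb.

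By their centre, 228 of the 455 (50.1%, 45.4 to 54.8) were inside a protein-coding gene, against 52.5% of the narrow peaks away from TSSs and 64.0% of all peaks. Any overlap with a protein-coding gene was found for 329 (72.3%), against 56.8% and 82.4%. Another peak lay within 1 kb of 94 (20.7%), against 5.76% of the narrow peaks away from TSSs, 6.05% of the wide promoter peaks and 5.75% of all peaks. Within 10 kb the count was 250 (54.9%), against 22.4%, 33.0% and 22.9%. A listed gene was shared with a promoter peak by 173 (38.0%, 33.5 to 42.7), against 31.1% of the narrow peaks away from TSSs and 70.4% of all peaks, a count that includes the promoter peaks themselves.

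A snoRNA gene, whose product guides modification of ribosomal and spliceosomal RNA and usually comes from an intron of a host gene, was overlapped by 29 of the 455 peaks (6.37%, 4.31 to 9.03), against 9 of the 430 wide promoter peaks (2.09%), 1 of the 1249 narrow peaks away from TSSs and 1.03% of all peaks. These 29 peaks overlapped 69 of the 1340 annotated snoRNA genes (5.15%). Per Mb of peak there were 43.6 snoRNA genes in the wide peaks away from TSSs, 9.59 in the wide promoter peaks and 0.674 in the narrow peaks away from TSSs. Among the 229 peaks of 2 to 3 kb, 5 overlapped a snoRNA gene (2.18%), and among the 32 over 6 kb, 7 did (21.9%). The 29 peaks had a median width of 4571 bp and a median of 20.4-fold (9.75 to 44.7), against 2904 bp and 16.9-fold in the other peaks away from TSSs of over 2000 bp. Of them, 12 lay over a ribosomal protein or translation factor gene, 17 over a lncRNA gene and 1 over neither.

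The snoRNA hosts among noncoding genes were covered whole in several cases. At Snhg3, which hosts Snora73a and Snora73b, a peak of 5425 bp held 525 tags at 25.0-fold. At Snhg1, host of Snord22 among others, a peak of 5332 bp held 351 tags at 17.1-fold, and at Gas5, host of Snord47, one of 4293 bp held 265 tags at 16.5-fold. Over 2410006H16Rik, with Snord49a, Snord49b and Snord65, a peak of 7178 bp held 700 tags at 35.2-fold. The nearest listed gene of that peak was Trpv2, 31.3 kb away. Of 19 noncoding genes on a list of well known ones, 9 were overlapped by a wide peak away from a TSS, namely Malat1, Neat1, Gas5, Snhg1, Snhg3, Snhg5, Snhg6, Snhg8 and Snhg12, and Terc only by a narrow peak. The other 9, among them Xist, Meg3 and H19, were under no peak. The authors' list named 0 of the 19 for such a peak, so these counts come from the RefSeq gene table.

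The 3 widest peaks of the whole data set were in this class and overlapped long noncoding RNA genes. The widest, of 13470 bp on chr13:97482084-97495553, held 932 tags at 20.7-fold and lay inside Lncenc1, a lncRNA gene known from naive ES cells. A second, of 12023 bp on chr13:97495581-97507603, began next to it, overlapped the end of the gene and held 625 tags at 17.3-fold, and a peak of 2106 bp and 13.3-fold followed further on. Their listed genes, Enc1 and Gm10260, lay 244 to 276 kb away. A peak of 11974 bp on chr19:5792740-5804713 covered all 6983 bp of Malat1, an abundant nuclear lncRNA, with 1061 tags at 18.6-fold. Over the neighbouring Neat1, the RNA that builds paraspeckles, a peak of 6181 bp held 303 tags at 24.2-fold and overlapped 21.4% of the gene. Over all lncRNA genes, 77 of 12731 (0.605%) were under a peak of the class. A lncRNA gene was overlapped by 16.9% of the 455 peaks, by 17.2% of the wide promoter peaks, by 13.5% of the narrow peaks away from TSSs and by 14.5% of all peaks. Per Mb of peak, overlaps with lncRNA genes were fewest in this class, at 50.0. They numbered 64.5 in the wide promoter peaks, 120 in the narrow peaks away from TSSs and 105 in the narrow promoter peaks. A lncRNA gene can be longer than a peak, so this rate also falls as peaks get wider. The share of peaks did not have this order, at 16.9% in the class and 13.5% in the narrow peaks away from TSSs.

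MicroRNA genes were overlapped by 10 of the 455 peaks (2.20%, against 0.851% of all peaks), which together held 18 of 1228 annotated miRNA genes (1.47%), 9 of them in the miR-290 cluster. Per Mb there were 11.4 in the wide peaks away from TSSs and 7.41 in the narrow ones. Mir1894 lay under a peak of 6643 bp with 588 tags at 14.4-fold in Ppp1r10, a protein phosphatase regulator gene. A tRNA gene was overlapped by 2 of the 455 peaks (0.44%) and by 0.258% of all peaks.

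**Figure D3:**
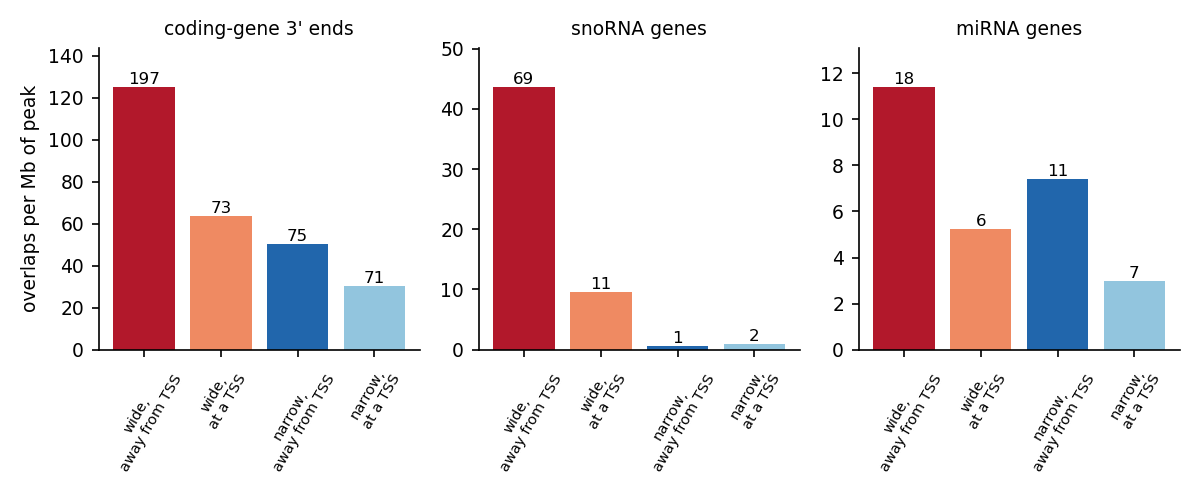
Overlaps of peaks with 3′ ends of coding genes, snoRNA and miRNA genes per Mb of peak (bars from 0, number of overlaps above each bar) in the 4 classes of peaks by width and distance to a TSS. The wide peaks away from TSSs stand at 125, 43.6 and 11.4 per Mb. Overlaps with lncRNA genes, not drawn, were fewest per Mb in this class (50.0), but such genes can be longer than a peak, so this rate also falls with peak width.

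Among the most enriched of the class was a peak of 9129 bp at 148-fold with 901 tags. It was centred in Rhof, 3512 bp upstream of the listed TSS of Setd1b, a histone H3 lysine 4 methyltransferase gene, and reached over that TSS. Its score of 1184 was the highest of the class. Further high values were 59.2-fold at the immediate early gene Ier2, 54.6-fold at Rnf44, 49.1-fold at the zinc finger gene Zfp219, 48.9-fold at the linker histone gene Hist1h1c, 48.0-fold at the ferritin light chain gene Ftl1 and 46.8-fold 114 kb from the carbonic anhydrase gene Car2. The upper quartile of the class was 21.6-fold.

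The most tags, 1158 at 13.9-fold, were in a peak of 4263 bp on chr17:39842846-39847108. It overlapped 40.8% of Rn18s-rs5, a copy related to 18S ribosomal RNA, and its nearest listed gene, Gm9041, was 204 kb away. Ribosomal DNA has many near-identical copies, so the origin of these tags within the genome is uncertain. Further high counts were 649 tags in 7109 bp at the beta-actin gene Actb (33.4-fold), 628 tags in 10320 bp at the survival gene Mcl1 (16.5-fold) and 476 tags in 3923 bp at the histone H3.3 gene H3f3b (36.9-fold). A peak of 6461 bp past the 3′ end of the elongation factor gene Eef1a1 held 578 tags (26.0-fold). The only coding gene that this peak overlapped was Mto1. Actb, Mcl1 and H3f3b also have processed copies elsewhere in the genome, and no source used here says how tags with several matches were treated.

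After the peaks at Lncenc1, Malat1 and Mcl1, other wide peaks were those of Setd1b (9129 bp), Slc25a12, a mitochondrial carrier gene (8483 bp, 14.6-fold, inside the gene), Srsf3 (8393 bp), Fam69b (7930 bp with 455 tags at 23.9-fold, over the snoRNA host Snhg7) and Rps20 (7855 bp with 401 tags at 22.8-fold). A coding gene's 3′ end lay under the peaks at Mcl1, Srsf3, Fam69b and Rps20, and none was counted under those at Setd1b and Slc25a12. Of the peaks farthest from a listed TSS, that of Foxp1 was 2069 bp wide with 64 tags at 16.4-fold, and it covered a RefSeq TSS. That of Epb4.1l4a, a cytoskeletal band 4.1 gene, was 4281 bp wide at 41.8-fold and centred 211 kb into the gene. It lay over the gene's 3′ end and over the lncRNA gene Epb41l4aos and the snoRNA gene Gm23639. Distance from the listed TSS thus came with both low and high enrichment, and these peaks were not all clear of other gene starts or of gene ends.

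The false discovery rate of the authors' table rose with the score, the reverse of its usual direction. Its median was 0.65% in the 203 peaks of the class with a score under 100, 1.02% in the 198 from 100 to 300, 2.76% in the 32 from 300 to 500 and 8.16% in the 22 above, where it reached 50% at Setd1b. A rate above 5% was found in 25 of the 455 peaks (5.49%, against 0.98% of all peaks), so a limit on it removes the strongest peaks first.

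In all, 708 genes were listed for a wide peak away from TSSs, 688 of them among 21900 protein-coding genes (3.14%), and 384 (1.75%) as the nearest listed gene of a peak. A peak was listed for 1 gene in 51 cases and for 2 in 404, so neighbours share peaks. Genes were compared with this 3.14% in lists of pathways and cell types, which share some members (Sox2 stands in 3). Over all lists, 127 of 793 genes were listed. The highest shares were those of the cytosolic ribosomal protein genes, with 37 of 79 (46.8%, 35.5 to 58.4), the pluripotency genes, with 12 of 30 (40.0%, 22.7 to 59.4), and the Hnrnp and Srsf genes of RNA processing, with 14 of 36 (38.9%, 23.1 to 56.5). The wide promoter peaks, for which 2.31% of coding genes were listed, had 14, 1 and 18 genes of these lists. The narrow peaks away from TSSs, for which 8.68% were listed, had 16, 12 and 7.

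**Figure D4:**
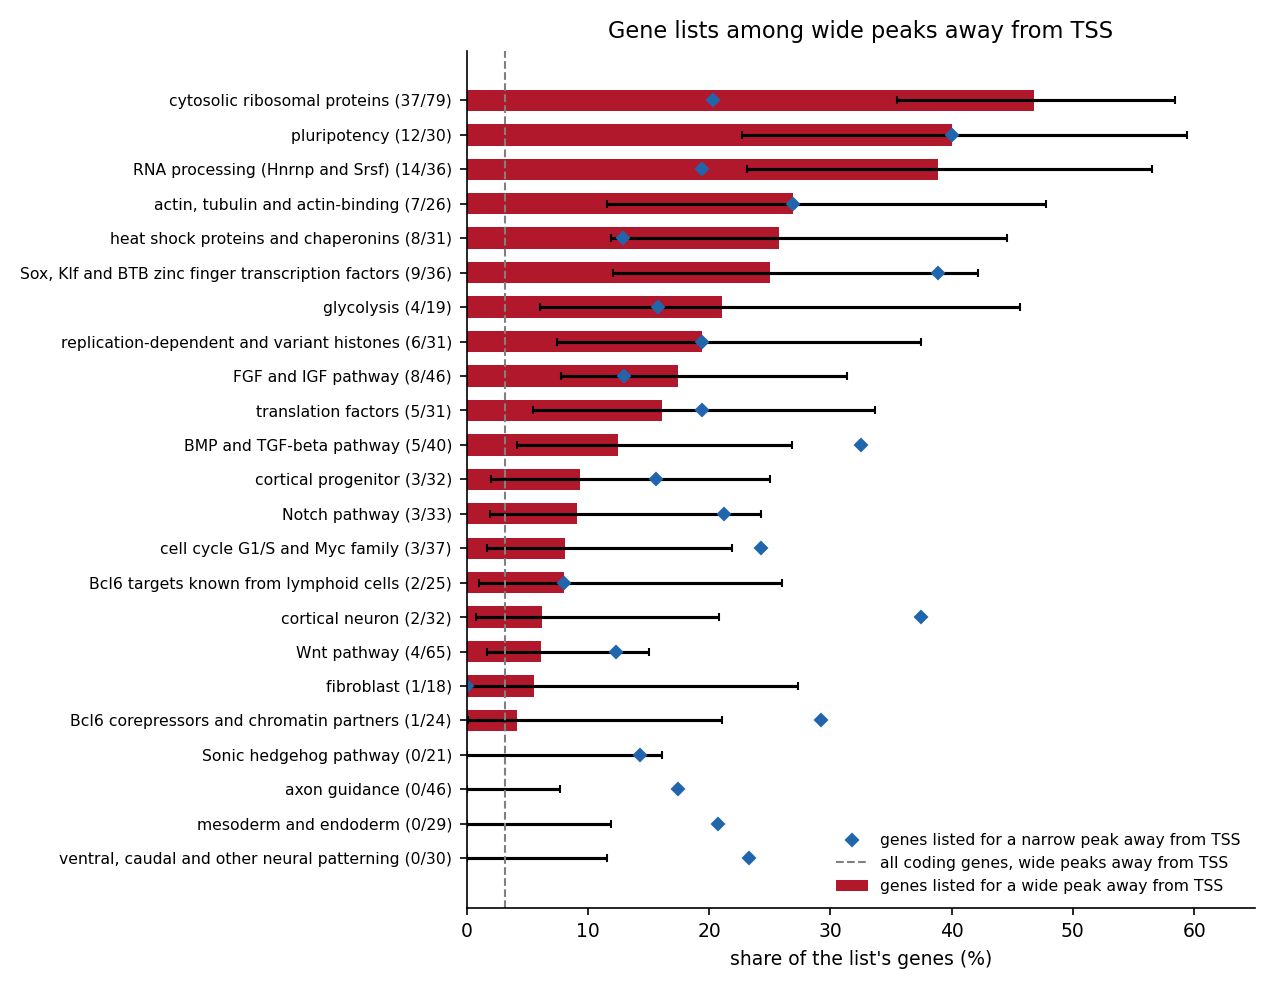
Share of each list's genes that were listed for a wide peak away from TSSs (red bars from 0, with 95% exact intervals and counts in the labels) and for a narrow one (blue diamonds), with the share of all coding genes for the wide peaks dashed at 3.14%. Ribosomal protein, pluripotency and RNA processing genes stand at 46.8%, 40.0% and 38.9%. The 4 lists at the bottom have 0 genes with a wide peak, with intervals that include 3.14%.

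Ribosomal protein genes encode the protein subunits of the cytosolic ribosome and are short and highly transcribed in dividing cells. The 37 genes had a median length of 2969 bp, against 17146 bp for all coding genes. The nearest of their wide peaks was centred past the 3′ end in 25, inside the gene in 7, upstream in 3 and could not be placed in 2. A wide peak reached over the listed TSS of 13 of the 37 genes and over the 3′ end of 27, and 10 had both ends under it. Fold enrichment ran from 9.04 upstream of Rpl18 to 44.7 at Rpl32, and width from 2244 to 9726 bp. At Rpl32 the peak was 5951 bp wide with 363 tags, and also held Snora7a. At Rpl10a it was 5792 bp wide with 395 tags at 32.6-fold, and at Rpsa 4827 bp with 339 tags at 31.9-fold. A promoter peak was also listed for 9 of the 37 genes. With the distance set to over 5000 bp, 11 of the 37 genes were left, and without the peaks that span a listed TSS, 27.

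**Figure D5:**
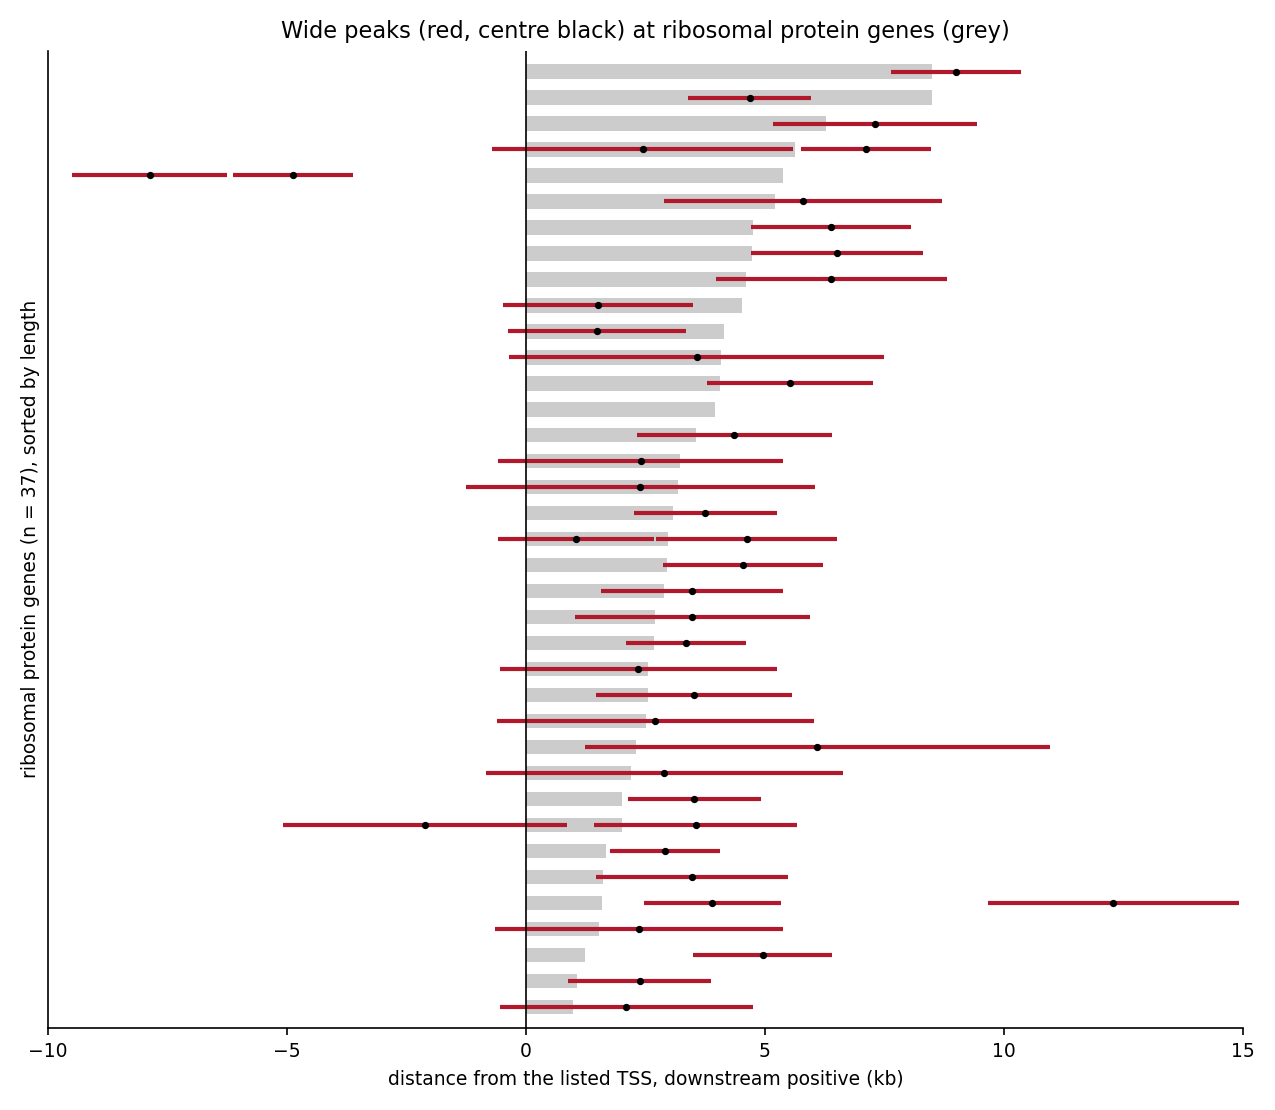
The wide peaks (red, black point at the centre) of the 37 ribosomal protein genes on a scale of kb from the listed TSS, downstream to the right, with 1 gene to a line, in grey and sorted by length. Peaks cover the 3′ end of 27 genes and the TSS of 13, and the peak of Rps14, 48.7 kb upstream, lies outside the plotted range.

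Of the 14 genes of RNA processing, 5 had the nearest of their wide peaks centred past the 3′ end, 6 inside the gene and 2 upstream, and 1 could not be placed. The highest enrichment was at Ptbp1, a splicing repressor gene of neural progenitors, at 43.9-fold in a peak 11.1 kb from its TSS that BC005764 also has. At Srsf3, a splicing factor gene, peaks of 8393 bp (476 tags, 21.9-fold) and 6685 bp (285 tags, 16.6-fold) lay past the gene and over it, and together covered 77.5% of 19.5 kb. At Hnrnpa2b1 peaks of 6630 and 6612 bp had 16.3- and 12.0-fold enrichment. A promoter peak was listed for 9 of these 14 genes as well, and a 3′ end lay under the peaks of 9. With a width of over 3000 bp, or by the nearest TSS of each peak only, 9 genes were left.

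The pluripotency genes with a wide peak were Sox2, Zfp42, Sall4, Fgf4, Nanog, Esrrb, Dppa5a, Tet1, Pou5f1, Gdf3, Utf1 and Klf2, most of which encode factors or markers of ES cells. Nanog, a homeodomain factor of ES cells, was listed for 4 wide peaks of its 5, from 4.33 kb upstream to 33.8 kb downstream and of 15.1- to 20.5-fold, 3 of them within 28.7 kb. These 3 were also listed for Slc2a3, a gene of the glycolysis list. Those 20.5 and 33.8 kb from the Nanog TSS were nearer to the Slc2a3 TSS, at 14.6 and 1.4 kb. Zfp42, also called Rex1, had a peak of 6726 bp with 393 tags at 25.5-fold, 17.0 kb from its TSS and past the gene. Pou5f1, which encodes Oct4, had a peak of 4263 bp at 18.2-fold that was centred 1.84 kb upstream and reached over the listed TSS. Sox2 had peaks of 30.6- and 19.2-fold 107 and 110 kb downstream besides the one over the gene, and Klf2 had a peak of 6964 bp with 385 tags at 13.6-fold. A promoter peak was also listed for 1 of the 12, Nanog. The count fell to 6 with a distance of over 5000 bp and to 7 without the peaks that span a listed TSS, such as those of Pou5f1, Sall4 and Utf1, the latter pair centred 1.49 and 1.06 kb from it. The cells came from ES cells, and whether any ES cells were left in the cultures was not measured by these libraries.

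Of the other lists of housekeeping genes, the actin and tubulin list had 7 of 26 genes (26.9%), with Actb, Tuba1b (25.7-fold) and Tubb5 (20.3-fold). The heat shock and chaperonin list had 8 of 31 (25.8%), with the cyclophilin gene Ppia (41.9-fold) and Hsp90ab1 and Hspa1b (both 33.4-fold). The glycolysis list had 4 of 19 (21.1%), with Gapdh at 349 tags and 19.3-fold. The histone list had 6 of 31 (19.4%), with Hist1h1c, H3f3b and H2afv, whose peaks 27.6 and 23.7 kb away were also those of Ppia. The translation factor list had 5 of 31 (16.1%), with Eif4a2, where 3 wide peaks together covered 93.5% of 8.98 kb. Expression was not measured in these libraries.

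Lists of signalling and transcription genes reached up to 25.0%. The Sox, Klf and BTB zinc finger list had 9 of 36 (25.0%), among them Klf9, where 1 of 6 peaks was of this class (6.18 kb upstream, 4584 bp, 205 tags, 16.7-fold), and Zbtb7a, Zbtb20, Klf15, Klf12, Patz1 and Sox4. The FGF and IGF list had 8 of 46 (17.4%), with the IGF receptor gene Igf1r at 36.4-fold, centred 1.47 kb upstream of the listed TSS, the ligand gene Fgf18 at 34.3-fold in a peak centred 1.51 kb upstream that reached over its listed TSS, and Fgf4 and Fgf15, which share their peaks, as Igfbp2 and Igfbp5 do. The BMP and TGF-beta list had 5 of 40 (12.5%), namely the ligand genes Nodal (28.2-fold), Lefty1, Lefty2 and Gdf3 and the corepressor gene Tgif1.

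Of the genes that bear on Bcl6 in cortical progenitors, Hes1, a Notch effector, had a wide peak centred 1.22 kb upstream that reached over its listed TSS (3592 bp, 162 tags, 13.0-fold), 1 of its 2 peaks. The Notch list had 3 of 33 (9.09%), the others being Rbpj, the DNA-binding partner of activated Notch, at up to 13.1-fold, and the coactivator gene Maml3 at 16.8-fold. The cortical progenitor list had 3 of 32 (9.38%), Sox2, Hes1 and Otx2, and the Wnt list 4 of 65 (6.15%), Ryk, Tle3, Csnk1a1 and the beta-catenin gene Ctnnb1. The peak of Ctnnb1 was centred inside the gene, while those of Ryk, Csnk1a1 and Tle3 lay 108, 39.5 and 536 kb from the TSS. The peak listed for Tle3 was also that of the ribosomal protein gene Rplp1, at 4.95 kb. By the nearest TSS of each peak only, 2 genes of the Wnt list were left. The cell cycle list had 3 of 37 (8.11%), Cdk4, Ccne1 and the CDK inhibitor gene Cdkn1a, whose 4 wide peaks of 14.2- to 25.1-fold include 3 that were also listed for Srsf3. The cortical neuron list had 2 of 32 (6.25%), Gap43 at 535 kb and Foxp1 at 407 kb, while narrow peaks away from TSSs were listed for 12. The exact intervals of the Notch, cortical progenitor, Wnt, cell cycle, cortical neuron, lymphoid target (2 of 25), fibroblast (1 of 18) and corepressor (1 of 24) lists all reached below the 3.14% of coding genes. No gene had a wide peak in the Sonic hedgehog (0 of 21), axon guidance (0 of 46), ventral and caudal patterning (0 of 30) and mesoderm and endoderm (0 of 29) lists. Their exact intervals reached up to 16.1%, 7.71%, 11.6% and 11.9%, so these zeros are not set apart from the 3.14% of coding genes. Narrow peaks away from TSSs were listed for 3 (14.3%), 8 (17.4%), 7 (23.3%) and 6 (20.7%) of their genes, against 8.68% of all coding genes. Bcl6, Hes5, Ccnd1 and Ccnd2 had no wide peak away from a TSS.

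Wide peaks of this class stood together at some loci. Of the 455, 114 formed 53 chains with gaps of at most 10 kb, 7 of them of at least 3 peaks. The chain with the most peaks had 4 at Zmynd8, which encodes a chromatin reader, with 875 tags and 10.2- to 27.3-fold enrichment over 22.2 kb, of which peaks covered 75.8%. Eya2 was listed for the same 4 peaks, 156 to 174 kb from its TSS. Chains of 3 stood at Lncenc1, at Nanog with Slc2a3, and at Tgif1, Ier2, Eif4a2 and Brd2, a bromodomain gene with 661 tags over 14.2 kb. By gene, 121 of the 708 were listed for 2 or more wide peaks, and Tgif1, with 7 of its 9 peaks in this class from 65.2 kb upstream to 96.3 kb downstream, had the most, at 12.0- to 19.8-fold. By chromosome, the share of peaks that were wide and away from TSSs ran from 4.08% on X (2 of 49) and 6.67% on 19 (8 of 120) to 18.1% on 17 (40 of 221), besides 1 of 1 on Y.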

How the data were processed

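Libraries were 3 ChIP and 3 input, pooled by group per the series' design text. The submitters' processing notes name Bowtie and mm10, with no version in the sources used here. Per the file headers, the authors called peaks with MACS 1.4.2 (p-value cutoff 1e-05, band width 300 bp, tag size 26 bp, fragment size 188 bp, 1 tag per position, local background over 1000 and 10000 bp). The deposited tags are raw counts of pooled ChIP tags, the deposited fold enrichment is a ratio of ChIP to local input, and the authors gave the FDR in percent, with no account of how it was computed in these sources. The deposited score is −10 log10 p. A spreadsheet had overwritten its column name, and column order and its minimum of 50.03 identified it. Per the file headers, the deposited gene list came from GREAT 3.0.0, with domains reaching 5000 bp before and 1000 bp past a TSS, extended by up to 1000000 bp.

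Gene list and peak table were joined by peak number. Of 859 pairs of a wide peak away from TSSs and a gene, 850 matched a RefSeq symbol (GRCm38.p6, the build of mm10), and the median gap between the implied TSS and a gene end was 43 bp. Strand came from RefSeq promoter windows or, for genes without one, from list entries over 1000 bp from the TSS. It was known for 17898 of 21900 coding genes (81.7%), and 3′ ends of coding genes under peaks were counted only where it was known. The side of a listed gene was read only where its implied TSS lay within 1000 bp of an end of the RefSeq gene. There the strand was that of the better matching end. The 3′ ends counted for genes of the lists were read in the same way. The windows lack some genes, and no genome sequence was used here, so the planned motif search ran only on windows. Overlap means at least 1 shared base. Intervals are exact (Clopper-Pearson, 95%), from SciPy 1.17.1, and cover counting only, since peaks and genes are not replicates. No test across peaks was run. The functions for classes, overlaps and gaps were tested on simulated data.

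The members and gene lists were chosen with earlier results of these data known. Genes were named by rule: the nearest listed genes of the 10 peaks highest in fold, score, tags and width, of the 5 nearest and 5 farthest from a TSS and of 3 on each side of a threshold, up to 10 genes with most peaks, up to 4 genes per list by fold, and Bcl6, Hes1, Hes5, Ccnd1, Ccnd2, Actb and Klf9. Genes under or beside peaks that the list does not name, and the other genes named for a list's count, were chosen after their values were seen. A few genes that this rule names are not reported here.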

Additional observations from a re-analysis of the deposited data

How the results depend on the processing

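The number of wide peaks away from TSSs was 714 with a width of over 1500 bp, 226 with over 3000 bp and 274 with a distance of over 5000 bp, against 455. The share centred in a coding gene (50.1%) was 43.8% with a distance of over 5000 bp, 72.31% with any overlap, 58.46% with all annotated genes, 45.01% without peaks that span the nearest listed TSS and 44.84% without peaks that hold a RefSeq TSS. The share with a gene in common with a promoter peak (38.0%) was 47.75% with a distance of over 2000 bp, 56.2% with over 5000 bp and 26.37% among peaks of at least the median score, a limit that removes promoter peaks too. Coding genes with such a peak (688) numbered 376 with a width of over 3000 bp, 455 with a distance of over 5000 bp and 384 by the nearest TSS only, and list genes (127) numbered 82 and 66 with the first and second of these. The median fold enrichment was 16.72 to 18.62 and the median score 90.35 to 162.9 over the alternatives run, which also included limiting the FDR to 5%, leaving out chromosome Y, and using the summit for the centre. Leaving out peaks that span a TSS or lie over small RNA or lncRNA genes was added after seeing the data. No paired analysis was possible because each group was deposited as 1 pooled value, and for the same reason no replicate could be left out. The input kept 5048582 tags against 11718276 for the ChIP, which limits the precision of the fold enrichment.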
